A study of Mus musculus with 22 samples.

Results

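The Myc family genes described here are Myc, Mycn, Mycl1, Max and Mga. They were chosen by symbol in the deposited table of gene counts, and all 5 were found among its 21881 symbols. The series sequenced RNA of single mouse embryos at embryonic day 3.5 that lacked Nanog, carried 1 copy of it or were wild type, and of stem cell lines of the 3 blastocyst lineages. Nanog encodes a homeodomain factor of the early epiblast. Per the labels, the embryos were 4 Nanog knockout (2 female, 2 male, called null below), 2 heterozygous and 2 wild type, with 1 female and 1 male in each of the last 2 groups. The labels do not say how the null allele was made, which strain was used or which embryos were littermates. The cell lines, all labelled wild type for Nanog, were 2 embryonic stem (ES) lines, 1 female and 1 male, 3 trophoblast stem (TS) lines, 2 female and 1 male, and 2 extra-embryonic endoderm (XEN) lines, both male. Each line was sequenced at 2 passages, which the labels call technical replicates. The ES libraries are titled as serum free and no medium is named for TS or XEN libraries, so lineage and culture medium cannot be told apart in any ES comparison.

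The Myc proteins are basic helix-loop-helix leucine zipper factors that bind DNA only as dimers with MAX, at the hexamer CACGTG, called the E-box. Myc, Mycn and Mycl1 encode the growth-promoting members c-MYC, N-MYC and L-MYC, whose targets include ribosome biogenesis and nucleotide synthesis genes. MGA also pairs with MAX, carries a T-box domain, and is the scaffold of a variant Polycomb complex, PRC1.6, which is known in mouse ES cells for keeping germ-cell genes silent. The MXD, MNT and MLX proteins compete within the same dimer network.

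For 4 of the 5 genes a promoter window was present in the RefSeq table (build GRCm38.p6), and Myc had no entry. The windows reach from 250 bases before the start to 50 bases after it. They were searched on both strands for the E-box CACGTG, which reads the same on both, for TTTGGCGC, a site of E2F factors, and for GCGGGAA, a site close to that of E2F6, a DNA-binding subunit of the same Polycomb complex. The E-box occurred in 8.09% of the 27025 genes with a window, TTTGGCGC in 0.585% and GCGGGAA in 5.29%. None of these motifs was present in the windows of Mycl1 or Mga. The Max window held an E-box, shown in capitals with 10 bases on either side, at chr12:76962236-76962261 on the minus strand:
Max: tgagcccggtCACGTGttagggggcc
The Mycn window held TTTGGCGC at 2 places on the gene's strand. The 250 bases before the Mycn start, at chr12:12941837-12942086 on the minus strand, are shown with both copies in capitals:
Mycn: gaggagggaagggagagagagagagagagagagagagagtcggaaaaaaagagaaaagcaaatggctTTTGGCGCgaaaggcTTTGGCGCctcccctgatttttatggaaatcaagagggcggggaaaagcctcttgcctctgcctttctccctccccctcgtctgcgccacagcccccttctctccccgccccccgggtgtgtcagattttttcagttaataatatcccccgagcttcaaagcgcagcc
These matches describe the letters of the windows and are not measured binding sites.

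The embryo libraries held 14768624 to 32231620 counts and the line libraries 8201801 to 23677126. Embryo libraries were made from amplified cDNA and line libraries with another kit, so values are compared within each set only. Levels are given in CPM, the count of a gene scaled to the total of its library. As a check of the labels, Nanog averaged 0.433 ± 0.153 CPM in null embryos (SD, n = 4), 70.6 ± 24.05 CPM in heterozygous embryos and 122 ± 21.1 CPM in wild-type embryos (n = 2 each). The defining markers of each lineage were high in its own lines. Their sum was 6178 to 7335 CPM in ES libraries for 8 epiblast genes, 2626 to 8061 CPM in TS libraries for 6 trophectoderm genes and 10870 to 17605 CPM in XEN libraries for 8 primitive endoderm genes. The epiblast sum was also 362 to 882 CPM in TS libraries. The 8 fibroblast markers summed to 4.99 to 7.33 CPM in ES, 11.2 to 226 CPM in TS and 0.158 to 11.2 CPM in XEN libraries. The highest of these was the first passage of TS line 2, while its second passage had 16.6 CPM, and Myc was 91.7 and 76.3 CPM in these 2 passages. The 7 blood markers summed to 410 to 703 CPM in ES, 133 to 915 CPM in TS and 1.97 to 6.30 CPM in XEN libraries. Laptm5 alone gave 402 to 693 CPM of the ES sums, in which Ptprc, Lyz2 and Tyrobp were at 0. In embryos the trophectoderm sum was 2297 to 8050 CPM in null, 5652 to 6195 CPM in heterozygous and 7535 to 7958 CPM in wild type. The epiblast sum was 698 to 1166 CPM in null, 1230 to 1270 CPM in heterozygous and 1190 to 1235 CPM in wild type. The part of these markers in the results was not tested. Null embryos missed more transcripts than the others. The number of genes with at most 3 counts in 1 embryo, while the other 7 embryos averaged at least 5 CPM, was 570, 300, 133 and 809 in the 4 null embryos (F1, F2, M1, M2), 68 and 45 in the heterozygous embryos and 40 and 41 in the wild-type embryos.

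In embryos, the 3 growth-promoting genes had their highest levels in wild type, and no member passed the test in any genotype comparison. Myc had 0.00, 7.63, 4.68 and 19.6 CPM in the null embryos (F1, F2, M1, M2), 17.1 and 5.76 CPM in the heterozygous female and male, and 23.0 and 23.9 CPM in the wild-type female and male. Its counts ran from 0 to 391 in null embryos, so the value of 0.00 in F1 stands beside 3 other null embryos with the transcript. Every null and heterozygous embryo was below both wild-type embryos, while the null and heterozygous embryos overlapped. Mycn had 2.38, 0.05, 6.86 and 0.80 CPM in the null embryos (F1, F2, M1, M2), 1.07 and 3.39 CPM in heterozygous embryos, and 10.6 and 15.2 CPM in wild-type embryos. The embryo lowest in Mycn, null F2 with 1 count, was not the one lowest in Myc, and the wild-type embryos were again above all others. Mycl1 was close to the floor of detection outside wild type. It had 0.24, 0.18, 0.10 and 0.30 CPM in null embryos (2 to 6 counts), 0.09 and 0.54 CPM in heterozygous embryos (2 and 8 counts), and 2.67 and 2.61 CPM in wild-type embryos (63 and 84 counts).

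The dimer partners Max and Mga had smaller fitted changes than the growth-promoting genes, except in null against heterozygous embryos. There the log2 fold change was 0.60 for Max, against 0.23 for Mycn and -0.21 for Mycl1. Max had 42.6, 31.1, 75.5 and 47.5 CPM in null embryos, 25.7 and 44.1 CPM in heterozygous embryos, and 54.9 and 56.4 CPM in wild-type embryos. The null embryos lay on both sides of the wild-type pair, and both heterozygous embryos were below it. Mga had 134, 159, 120 and 62.7 CPM in null embryos, 121 and 96.5 CPM in heterozygous embryos, and 160 and 58.6 CPM in wild-type embryos. The wild-type female and male spanned nearly the whole range of Mga, so the genotypes overlapped throughout.

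**Figure D1:**
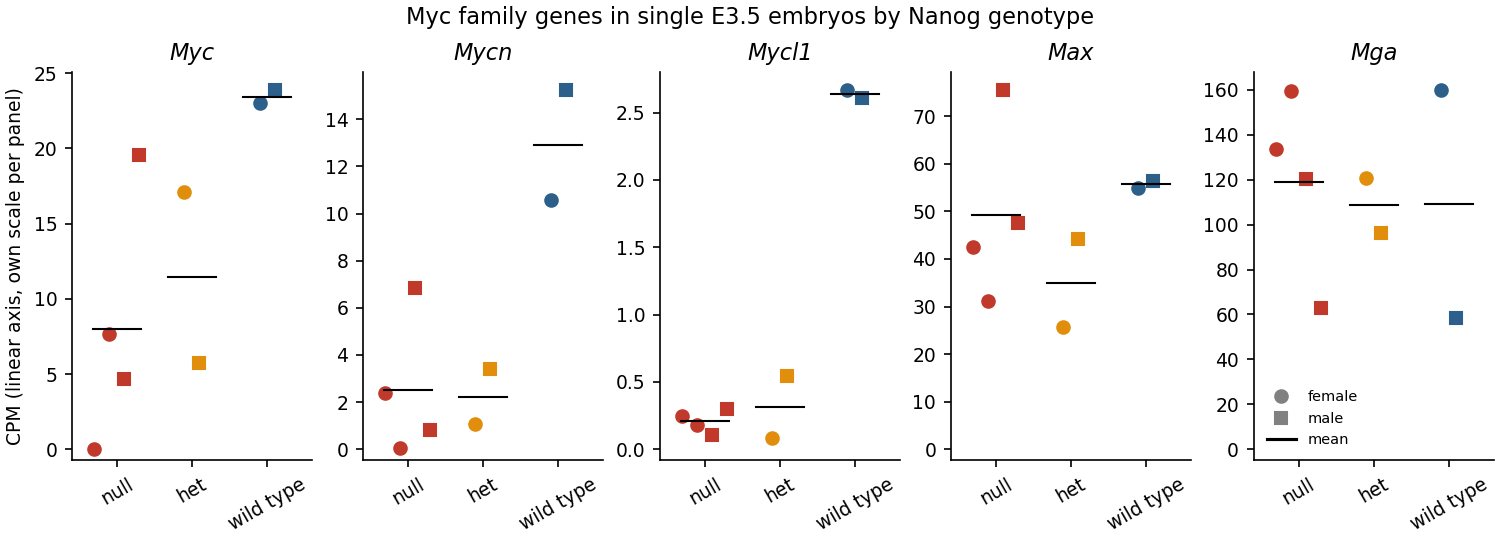
CPM of each Myc family gene (linear axis, own scale per panel) in 4 null, 2 heterozygous (het) and 2 wild-type embryos, with circles for females, squares for males and bars for group means. Myc, Mycn and Mycl1 are highest in the 2 wild-type embryos, whereas Max and Mga overlap between null and wild type.

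Null embryos were compared with Nanog-bearing embryos, the equally weighted mean of heterozygous and wild type, with edgeR's quasi-likelihood test and Benjamini-Hochberg adjustment over the 12965 genes tested. Of the 5 members, 0 were called at an adjusted p under 0.05, where 0.0154% of all genes tested were called. None of the 5 had an unadjusted p under 0.05, which 644 genes (4.97%) reached, and DESeq2 called 0 as well. The log2 fold change was -1.08 ± 1.45 (SE) for Myc, -1.15 ± 1.46 for Mycn and -1.85 ± 1.79 for Mycl1. It was 0.23 ± 0.35 for Max and 0.25 ± 0.29 for Mga. All 5 edgeR adjusted p-values were at least 0.991. The gene-wise biological coefficient of variation, the spread between embryos left after the fit, was 1.18 for Myc, 1.24 for Mycn and 1.29 for Mycl1, against 0.422 for Max and 0.348 for Mga.

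The separation of wild type from the other embryos was read against all genes. Null against wild type gave 0 of 5 members called, with 0.0154% of genes called and 3.86% at an unadjusted p under 0.05, and log2 fold changes of -1.50 ± 1.599 for Myc, -2.53 ± 1.71 for Mycn and -3.49 ± 2.03 for Mycl1. In that comparison 3 of 5 members had every null embryo below both wild-type embryos, as did 11.3% of all genes tested. Heterozygous against wild type gave 0 of 5 members called, with 0% of genes called and 107 genes (0.825%) at an unadjusted p under 0.05. There 4 of 5 members (Myc, Mycn, Mycl1 and Max) had both heterozygous embryos below both wild-type embryos, as did 18.4% of genes. Null against heterozygous gave 0 of 5 called, with 0.00771% of genes called and 2.75% at an unadjusted p under 0.05, and log2 fold changes from -0.65 for Myc to 0.60 for Max. These comparisons share embryos and are not independent of each other. The null effect did not pass the test for a difference between the sexes in any member (edgeR interaction, adjusted p 0.9999 for each), with 0% of genes called. In these bulk samples, fewer cells of a type and less RNA per cell cannot be told apart. Null M2, with the most missing transcripts, had the highest Myc of the null embryos, and null F1, with the next most, had a Myc count of 0. The part of missing transcripts in the null values was not tested.

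Because a ratio of 2 genes within a library does not depend on scaling, the balance of Mycn to Myc was also compared, as the log2 ratio of counts with 1 added to each. It was 5.32, -6.39, 0.55 and -4.53 in the null embryos (F1, F2, M1, M2), -3.94 and -0.75 in heterozygous embryos, and -1.12 and -0.65 in wild-type embryos. Null F1, with a Myc count of 0, held Mycn without Myc, while null F2, null M2 and the heterozygous female held mostly Myc. Null M1 was more even, and the groups overlapped. F1 and M2 were the embryos with the most missing transcripts, and the part of these in the ratios was not tested. The difference, null minus Nanog-bearing, was 0.35 (exact two-sided permutation test, p = 0.857, smallest possible 0.0286). For Mycl1 to Myc the difference was 0.77 (exact permutation p = 0.829).

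In the lines, Myc family genes were called in each comparison of lineages, as were many other genes. Technical replicates were summed per line, and 14687 genes were tested in 7 lines. Myc had 20.8 and 16.0 CPM in ES lines, 105, 83.4 and 129 CPM in TS lines, and 115 and 130 CPM in XEN lines. Both ES lines were far below all 5 extra-embryonic lines. Myc fell in ES against TS (log2 fold change -2.60 ± 0.29, edgeR adjusted p = 0.000756) and in ES against XEN (-3.07 ± 0.30, adjusted p = 0.000345). It did not pass the test in TS against XEN (-0.47, edgeR adjusted p = 0.181), but did without TS line 3 (-0.70, adjusted p = 0.0388). The value in TS against XEN was -1.07 with the second technical replicate alone, without a call, and 0.29 with the first. Passages of 1 line differed by up to 2.41-fold, in TS line 1, which is less than the gap between ES and the other lineages.

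Mga, the Polycomb scaffold, was highest in ES lines, where Myc was lowest. It had 398 and 332 CPM in ES lines, 77.9, 86.8 and 45.9 CPM in TS lines, and 122 and 66.8 CPM in XEN lines. The ES lines were above every TS and XEN line, and TS and XEN overlapped. Mga rose in ES against TS (2.33 ± 0.32, edgeR adjusted p = 0.00174) and in ES against XEN (1.62 ± 0.36, adjusted p = 0.00891), and did not pass in TS against XEN (-0.71, adjusted p = 0.115). Without XEN line 2 the TS against XEN value was -1.09 and passed (edgeR adjusted p = 0.0483). The ES against XEN call was lost when ES line 1 was left out (1.45, edgeR adjusted p = 0.0504).

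Mycl1 had 24.6 and 18.7 CPM in ES lines, 20.9, 19.5 and 20.5 CPM in TS lines, and 3.21 and 5.44 CPM in XEN lines. ES and TS lines shared 1 range, and both XEN lines were below it. Mycl1 rose in ES against XEN (1.99 ± 0.35, edgeR adjusted p = 0.00340) and in TS against XEN (1.96 ± 0.33, adjusted p = 0.00359), while ES against TS gave 0.02 ± 0.30. With the first technical replicate alone, both calls were lost (1.49 in ES against XEN and 1.43 in TS against XEN). The passages of ES line 2 differed 2.95-fold in this gene.

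Mycn had 140 and 86.0 CPM in ES lines, 67.4, 61.6 and 63.8 CPM in TS lines, and 215 and 76.1 CPM in XEN lines. TS lines were tightly grouped and lowest, and the 2 XEN lines lay on either side of the ES pair. Mycn fell in TS against XEN (-1.45 ± 0.41, edgeR adjusted p = 0.0288), and without XEN line 1 the value was -0.53 with the call lost. The call was also lost without any 1 of the 3 TS lines and when library totals replaced TMM scaling (-1.18). ES against TS gave 0.75 ± 0.41 (adjusted p = 0.179) and ES against XEN -0.70 ± 0.46 (adjusted p = 0.248). The ES against XEN value turned to 0.22 without XEN line 1, and was -1.27 and passed without XEN line 2 (edgeR adjusted p = 0.0244). ES against TS passed without either XEN line (0.74 and 0.75, edgeR adjusted p = 0.0490 each).

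Max, the obligate partner, was the most even member. It had 88.6 and 80.4 CPM in ES lines, 69.0, 89.3 and 83.7 CPM in TS lines, and 79.5 and 89.6 CPM in XEN lines. All 3 lineages overlapped. The fitted log2 fold change was -0.00 in ES against TS, -0.34 ± 0.20 in ES against XEN (edgeR adjusted p = 0.207) and -0.34 in TS against XEN (adjusted p = 0.183). Passages of a line differed by at most 1.25-fold.

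**Figure D2:**
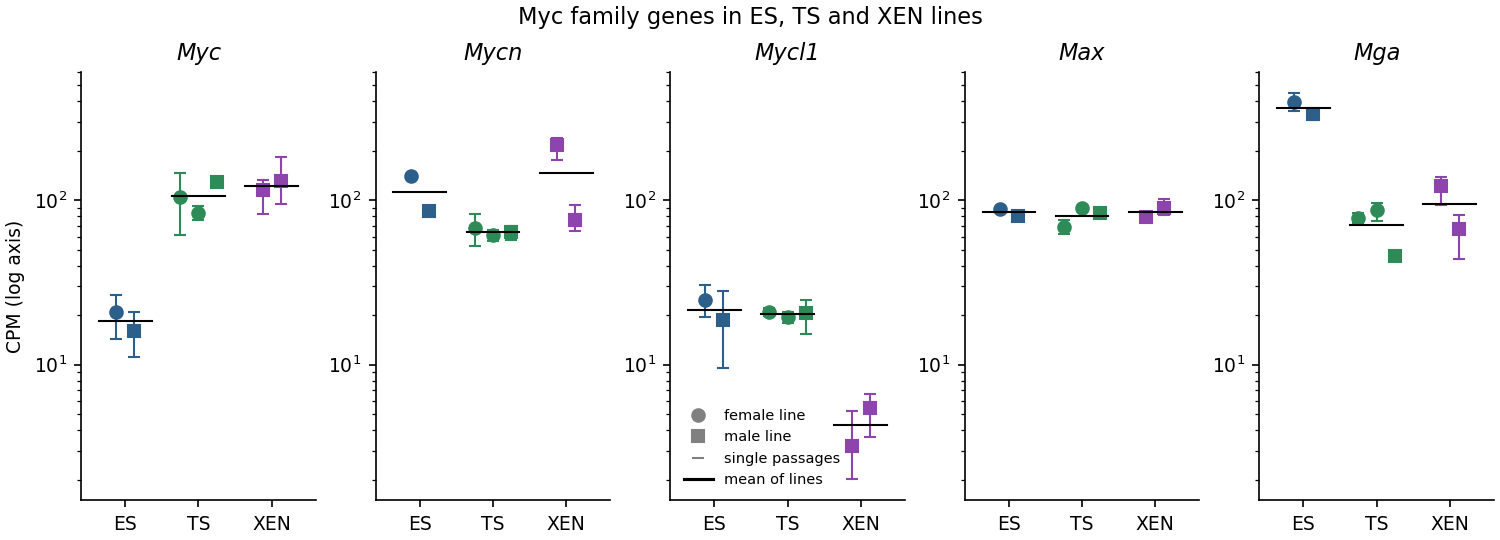
CPM (log axis) of each Myc family gene in 2 ES, 3 TS and 2 XEN lines. Circles and squares are female and male lines with both passages summed, ticks joined by a line are the single passages, and bars are the means of lines. Myc is lowest and Mga highest in ES lines, Mycl1 is lowest in XEN lines, and Max overlaps in all 3 lineages.

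Counted together, 2 of 5 members were called in ES against TS, where 41.3% of all genes tested were called (20% higher, 21.3% lower). In ES against XEN 3 of 5 were called, where 45.1% of all genes were (23.4% higher, 21.8% lower). In TS against XEN 2 of 5 were called, where 36.7% were (20.3% higher, 16.4% lower). These shares are near the background, so the lineages differed in the Myc family about as often as in other genes. Both XEN lines were male, and sex was not a term of this fit. XEN libraries had TMM factors of about 0.86, against 0.98 to 1.11 in the other lines. With library totals in place of TMM, the median log2 fold change of all genes moved to 0.39 in ES against XEN, against 0.05 with TMM, and to 0.30 in TS against XEN, against 0.02. The share of higher genes among those called was then 66.6%, against 51.7% with TMM, in ES against XEN, and 71.2%, against 55.3%, in TS against XEN. Changes against XEN are read relative to that shift. The Max value of -0.34 against XEN was of that size, and the mean CPM of Max was 84.5 in ES lines and 84.5 in XEN lines.

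**Figure D3:**
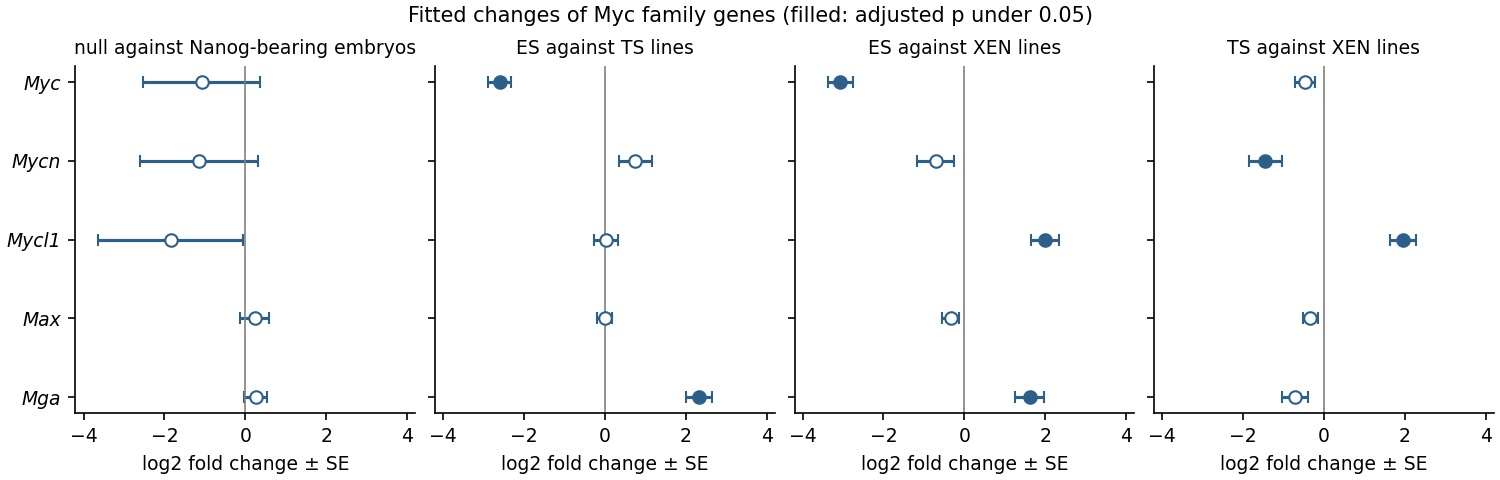
Fitted log2 fold change ± SE (horizontal axis) of each Myc family gene in null against Nanog-bearing embryos and in the 3 comparisons of lines, with filled points at an adjusted p under 0.05. Embryo values have SEs over 1 for Myc, Mycn and Mycl1, and the called values in lines reach from -3.07 for Myc to 2.33 for Mga.

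Levels of different genes were compared only per length, as CPM per kilobase of union exon (GENCODE M21 lengths, with Mycl1 listed there as Mycl). In ES lines the order was Max at 43.1 ± 2.96 (SD, n = 2), Mycn at 40.2 ± 13.5, Mga at 26.2 ± 3.36, Myc at 7.53 ± 1.39 and Mycl1 at 5.92 ± 1.13. Max and Mycn did not differ beyond their spread, and neither did Myc and Mycl1. In TS lines Myc at 43.2 ± 9.36 (SD, n = 3) stood beside Max at 41.2 ± 5.36, followed by Mycn at 22.9 ± 1.04, Mycl1 at 5.56 ± 0.194 and Mga at 5.04 ± 1.54. In XEN lines Mycn at 52.0 ± 35.1, Myc at 50.01 ± 4.42 and Max at 43.2 ± 3.66 (SD, n = 2) overlapped, above Mga at 6.78 ± 2.80 and Mycl1 at 1.18 ± 0.430. N-MYC's transcript was therefore the more abundant Myc transcript per length in ES lines, and c-MYC's in TS lines. The log2 ratio of Mycn to Myc counts was 2.74 and 2.42 in ES lines, -0.63, -0.44 and -1.02 in TS lines, and 0.91 and -0.77 in XEN lines. Both ES lines were above all others, and the XEN lines fell on either side of 0. With 2 lines against 3 no exact two-sided p below 0.2 was possible, and with 2 against 2 none below 0.333. In wild-type embryos the order per length was Max at 28.4 ± 0.535, Myc at 9.57 ± 0.255, Mga at 7.84 ± 5.14, Mycn at 4.60 ± 1.17 and Mycl1 at 0.721 ± 0.0115 (SD, n = 2).

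The genes most like each member over the 7 lines were sought among 10276 genes by Pearson's r of log2 CPM, as a description with no test, since lines of a lineage share most of their profile. Myc was closest to Mapkapk2, a stress kinase gene (r = 0.996), with 31.7 and 31.5 CPM in ES lines, 137, 115 and 178 CPM in TS lines, and 150 and 186 CPM in XEN lines. Next came Cdc42ep1 (0.994) and Obsl1 (0.993), and 300 genes reached an r of 0.95. Mga was closest to Qrich1 (0.997), OTTMUSG00000016609 (0.994) and Atad2b (0.993), with 208 genes at that level. Mycl1 was closest to Nrp2, a semaphorin co-receptor gene (0.991), Ccdc92 (0.987) and Cdc42ep5 (0.987), with 138 genes. Mycn had only 4 such genes, led by Prmt5, an arginine methyltransferase gene (0.965), Oxa1l (0.963) and Ecd (0.958). Max had 5, led by B3gat2 (0.985), Mat2a (0.969) and Atp6v0a2 (0.960). Mat2a encodes the methionine adenosyltransferase that makes the methyl donor, and it ranged from 238 CPM in TS line 1 to 322 CPM in ES line 1.

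Of the relatives outside the 5, Mycs had 0 counts in every library. Bmyc, which encodes a protein like the amino-terminal part of c-MYC, was abundant in embryos. It had 144, 143, 298 and 103 CPM in the null embryos (F1, F2, M1, M2), 70.3 and 174 CPM in heterozygous embryos, and 152 and 242 CPM in wild-type embryos, with no genotype separated. The log2 fold change in null against Nanog-bearing embryos was 0.30 ± 0.31 (edgeR adjusted p = 0.992). In lines it had 7.12 and 8.83 CPM in ES, 16.4, 14.6 and 22.6 CPM in TS, and 0.319 and 0.715 CPM in XEN. Bmyc fell in ES against TS (-1.24 ± 0.42, edgeR adjusted p = 0.0498), a call lost with library totals in place of TMM, and rose in ES against XEN (3.61 ± 0.51, adjusted p = 0.00147) and in TS against XEN (4.85 ± 0.52, adjusted p = 0.000598). How reads that match both Bmyc and Myc were counted is not given in the sources used here.

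Genes around the Myc family were taken from lists written from general knowledge. Their counts are to be read beside those of all genes tested. Of these, 20% were called higher and 21.3% lower in ES against TS, and 23.4% and 21.8% in ES against XEN. In TS against XEN the shares were 20.3% and 16.4%. Among 8 MAX-network partners and antagonists, 1 rose and 3 fell in ES against TS, 1 rose and 4 fell in ES against XEN, and 1 rose and 2 fell in TS against XEN. With library totals in place of TMM, 2 rose and 2 fell in ES against XEN, and 1 rose and 1 fell in TS against XEN. Mxi1, a MYC antagonist, had 38.6 and 38.3 CPM in ES lines, 20.4, 11.7 and 8.94 CPM in TS lines, and 72.2 and 72.4 CPM in XEN lines. The 3 lineages were separate and Mxi1 was called in each comparison, with log2 fold changes of 1.43 ± 0.31 in ES against TS (edgeR adjusted p = 0.00989), -1.25 ± 0.35 in ES against XEN (adjusted p = 0.0221) and -2.68 ± 0.31 in TS against XEN (adjusted p = 0.000863). Mlx, the partner of the MLXIP glucose sensors, fell in ES against TS (-0.96 ± 0.21) and in ES against XEN (-1.09 ± 0.22). Mlxip itself fell in both too (-1.10 ± 0.22 and -0.75 ± 0.23). Its CPM overlapped between ES lines (35.2 and 42.2) and XEN lines (61.7 and 40.9). The median log2 fold change of the 8 was 0.07, -0.64 and -0.42 in the 3 comparisons, against -0.02, 0.05 and 0.02 over all genes.

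Among 13 subunits of PRC1.6, the complex that MGA scaffolds, 6 rose and 3 fell in ES against TS, with a median of 0.55. In ES against XEN 4 rose and 3 fell, with a median of 0.44. Of all genes tested, 20% rose and 21.3% fell in ES against TS, and 23.4% and 21.8% in ES against XEN. L3mbtl2, a histone-binding subunit, had 228 and 212 CPM in ES lines, 97.4, 96.8 and 82.1 CPM in TS lines, and 84.7 and 65.4 CPM in XEN lines. It rose in ES against TS (1.19 ± 0.17, edgeR adjusted p = 0.00199) and in ES against XEN (1.21 ± 0.19, adjusted p = 0.00222). Wdr5, shared with histone methyltransferase complexes, rose in ES against TS (1.53 ± 0.16) and in ES against XEN (2.06 ± 0.18), as did Hdac2 (1.43 ± 0.21 and 1.07 ± 0.23). Yaf2 moved the other way (-1.71 ± 0.26 and -2.58 ± 0.28). Its paralogue Rybp fell in ES against TS (-0.84 ± 0.18) and rose in TS against XEN (1.28 ± 0.19). E2f6, a DNA-binding subunit, had 52.7 and 51.0 CPM in ES lines, 28.6, 33.8 and 30.5 CPM in TS lines, and 63.3 and 63.8 CPM in XEN lines. The complex thus had members called in both directions in every comparison. In TS against XEN 2 rose and 3 fell, where 20.3% of all genes tested rose and 16.4% fell. With library totals in place of TMM, 6 rose and 1 fell in ES against XEN, and 3 rose and 2 fell in TS against XEN.

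Among 11 Myc cofactors, 3 rose and 0 fell in ES against TS and 6 rose and 0 fell in ES against XEN, where 41.3% and 45.1% of all genes were called in either direction. Actl6a, a subunit of chromatin-remodelling and acetyltransferase complexes, rose in both (1.32 ± 0.16 and 1.27 ± 0.18), as did Zbtb17, which encodes the MYC partner MIZ1 (0.85 ± 0.28 and 1.00 ± 0.31). In TS against XEN 2 rose and 2 fell, and 3 rose and 0 fell with library totals in place of TMM. Among 9 genes of Myc protein turnover, Usp28, a deubiquitinase of MYC, had 159 and 179 CPM in ES lines, 19.7, 21.1 and 10.8 CPM in TS lines, and 39.6 and 26.9 CPM in XEN lines. It rose in ES against TS (3.24 ± 0.29, edgeR adjusted p = 0.000374) and in ES against XEN (2.00 ± 0.32, adjusted p = 0.00242). Over the list 2 rose and 1 fell in ES against TS, and 1 rose and 1 fell in ES against XEN. In TS against XEN 0 rose and 5 fell, which became 1 and 1 with library totals in place of TMM. With TMM, 20.3% of all genes tested rose and 16.4% fell there.

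Among the growth genes that c-MYC and N-MYC are known to activate, the ribosome biogenesis genes were more often called higher than lower in ES lines, where Myc was low. Of 27 ribosome biogenesis genes, 10 rose and 0 fell in ES against TS and 8 rose and 2 fell in ES against XEN, with a median log2 fold change of 0.38 in each, against -0.02 and 0.05 over all genes. Over all genes tested 20% were higher and 21.3% lower in ES against TS, and 23.4% higher and 21.8% lower in ES against XEN, so the higher share of the list in ES against XEN was near that of all genes. In ES against XEN the count was 17 and 1 with library totals in place of TMM. Dkc1, the pseudouridine synthase of snoRNPs and telomerase, had 608 and 403 CPM in ES lines, 63.9, 68.0 and 29.2 CPM in TS lines, and 81.4 and 73.8 CPM in XEN lines. It rose in ES against TS (3.19 ± 0.35, edgeR adjusted p = 0.000727) and in ES against XEN (2.37 ± 0.39, adjusted p = 0.00277). The snoRNP core genes Nop56 (1.00 ± 0.14 and 0.61 ± 0.16) and Nop58 (1.07 ± 0.15 and 0.90 ± 0.17) rose in both as well. In TS against XEN 0 rose and 3 fell, where 20.3% of all genes tested were higher and 16.4% lower. With library totals 4 rose and 1 fell there.

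Other target groups were mixed. Of all genes tested, 41.3% were called in ES against TS, 45.1% in ES against XEN and 36.7% in TS against XEN. Of 16 nucleotide and polyamine synthesis genes, 3 rose and 1 fell in ES against TS, 0 rose and 1 fell in ES against XEN, and 0 rose and 3 fell in TS against XEN. With library totals in place of TMM, 2 rose and 1 fell in ES against XEN, and 1 rose and 1 fell in TS against XEN. Odc1, the rate-limiting enzyme of polyamine synthesis, had 278 and 306 CPM in ES lines, 550, 663 and 496 CPM in TS lines, and 919 and 858 CPM in XEN lines. It was lowest in ES lines, as Myc was, and fell in ES against TS (-1.02 ± 0.16, edgeR adjusted p = 0.00291), in ES against XEN (-1.94 ± 0.18, adjusted p = 0.000242) and in TS against XEN (-0.92 ± 0.15, adjusted p = 0.00360). Of 19 growth and cell cycle genes, 6 rose and 2 fell in ES against TS, 5 rose and 4 fell in ES against XEN, and 3 rose and 2 fell in TS against XEN. The D-type cyclins, which drive entry into S phase, were called in opposite directions in ES against XEN. Ccnd1 had 272 and 234 CPM in ES lines, 42.6, 125 and 55.1 CPM in TS lines, and 1.38 and 1.99 CPM in XEN lines. Ccnd2 had 5.51 and 7.14 CPM in ES lines, 2.29, 10.8 and 7.49 CPM in TS lines, and 550 and 340 CPM in XEN lines. The log2 fold change in ES against XEN was 6.89 ± 0.61 for Ccnd1 (edgeR adjusted p = 0.000214) and -6.47 ± 0.75 for Ccnd2 (adjusted p = 0.000640). The amino acid transporter gene Slc7a5 fell in ES against TS (-1.02 ± 0.31) and in ES against XEN (-1.07 ± 0.33). Its CPM overlapped between ES lines (290 and 240) and XEN lines (597 and 282). Slc2a1, a glucose transporter gene, fell in ES against TS (-2.63 ± 0.54) and rose in TS against XEN (1.79 ± 0.52). Of 6 genes that c-MYC is known to repress, 0 rose and 1 fell in ES against TS, 1 rose and 2 fell in ES against XEN, and 1 rose and 2 fell in TS against XEN. With library totals in place of TMM, 1 rose and 1 fell in each comparison. Ndrg2 rose in ES against XEN (6.04 ± 0.63) and in TS against XEN (5.20 ± 0.60), while Cdkn1b, an inhibitor of cyclin-dependent kinases, fell in both (-0.98 ± 0.28 and -1.54 ± 0.25). The CPM of Cdkn1b overlapped between ES lines (46.5 and 64.3) and XEN lines (108 and 63.9).

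**Figure D4:**
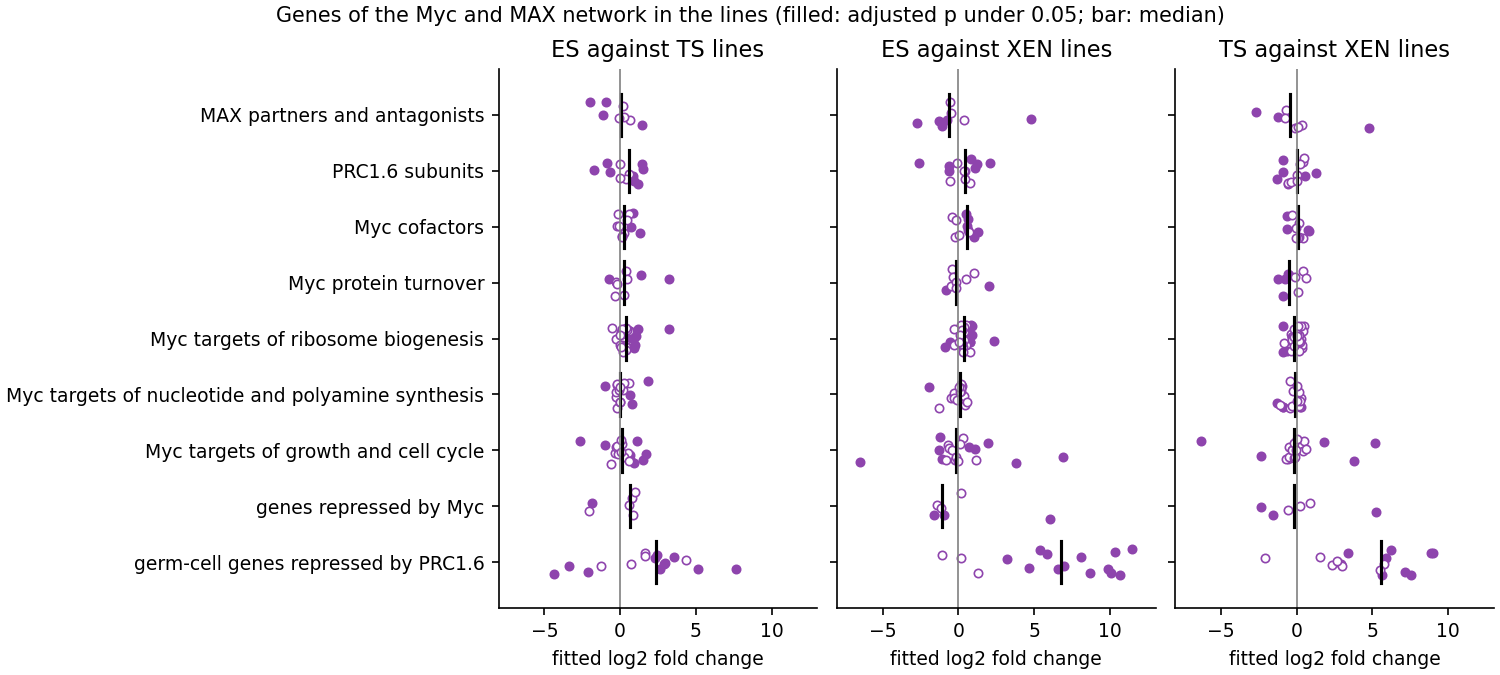
Fitted log2 fold changes (horizontal axis) of the genes in each list in the 3 comparisons of lineages, named above the panels, with filled points at an adjusted p under 0.05 and bars at list medians. Apart from the germ-cell genes, list medians run from -1.07 in ES against XEN to 0.68 in ES against TS, both for genes repressed by Myc. Ribosome biogenesis has a median of 0.38 in both ES comparisons, and PRC1.6 subunits have 0.55 and 0.44. The germ-cell genes reach a median of 6.77 in ES against XEN, and most of them were at or near 0 in XEN lines.

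The germ-cell genes that PRC1.6 is known to silence had the largest median among the lists of more than 1 gene in each comparison of lines, and more of them rose than fell in the ES lines, where Mga was also highest. Of 16 genes, 8 rose and 3 fell in ES against TS (median 2.35), 13 rose and 0 fell in ES against XEN (median 6.77) and 9 rose and 0 fell in TS against XEN (median 5.57). With genes at 0 counts set to their bound, the last 2 medians were 6.20 and 3.69. Stk31, Tex11, Ddx4, Mael and Slc25a31 had 0 counts in XEN lines, so they entered the tests only through the other lineages. Tdrd1, Hormad1, Smc1b, Mov10l1, Taf7l and Dazl had at most 0.249 CPM in XEN lines and also passed the filter through the other lineages. Against XEN these genes had little room to come out as anything but higher. The counts and medians against XEN, and the rank of the list there, are therefore largely set by the filter. Of all genes tested, 20% rose and 21.3% fell in ES against TS, and 23.4% and 20.3% rose in ES and TS against XEN. Most were low in absolute terms. Stk31, a germ-cell kinase-like gene, had 10.5 and 19.8 CPM in ES lines, 2.33, 2.98 and 1.72 CPM in TS lines, and 0 counts in both XEN lines. It rose at least 357-fold in ES against XEN, taking 3 counts over the XEN group as the floor, and 2.63 ± 0.45 on the log2 scale in ES against TS. Ddx4, the germline helicase VASA, had 5.17 and 12.2 CPM in ES lines, 1.10, 5.60 and 1.23 CPM in TS lines, and 0 counts in XEN lines, and was at least 205-fold higher in ES than in XEN lines. Stag3, a meiotic cohesin subunit, had 82.5 and 107 CPM in ES lines, 26.0, 18.8 and 6.40 CPM in TS lines, and 0.956 and 1.68 CPM in XEN lines. It rose in ES against TS (2.42 ± 0.50, edgeR adjusted p = 0.00837) and in ES against XEN (5.82 ± 0.69, adjusted p = 0.000689). Dazl, a germ-cell RNA-binding protein, had 29.0 and 54.8 CPM in ES lines, 1.19, 1.64 and 0.590 CPM in TS lines, and 0 and 0.249 CPM in XEN lines. Tdrkh, of the piRNA pathway, fell in ES against TS (-4.35 ± 0.73), with 0.574 and 1.69 CPM in ES lines and 23.8, 31.5 and 11.98 CPM in TS lines.

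The same list had the most E-boxes. Of 15 germ-cell genes with a RefSeq promoter window, 11 (73.3%) held CACGTG, against 8.09% of all genes, and 6 held GCGGGAA, against 5.29%. The list was written from genes known as targets of the complex, so this share is not independent evidence. The counts were 4 of 8 for MAX partners and antagonists, 5 of 15 for growth and cell cycle, 4 of 14 for nucleotide and polyamine synthesis and 3 of 21 for ribosome biogenesis. They were 1 of 10 for PRC1.6 subunits, 1 of 10 for cofactors, 0 of 8 for protein turnover, 0 of 5 for genes repressed by c-MYC and 0 of 2 for Bmyc and Mycs. Sites of germ-cell genes named here and of Mlx are shown for comparison with that of Max above, with the E-box in capitals and 10 bases on either side. They lie at chr6:49395474-49395499 (plus strand, Stk31), chr13:112652324-112652349 (minus, Ddx4), chr5:138280329-138280354 (plus, Stag3), chr1:166238952-166238977 (minus, Mael) and chr11:101087240-101087265 (plus, Mlx) in GRCm38.p6:
Stk31: gccggccaccCACGTGaccagggctg
Ddx4: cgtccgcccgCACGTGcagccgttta
Stag3: cgctggagccCACGTGacaggactgc
Mael: ccaggcctacCACGTGacaatccccg
Mlx: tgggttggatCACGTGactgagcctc

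**Figure D5:**
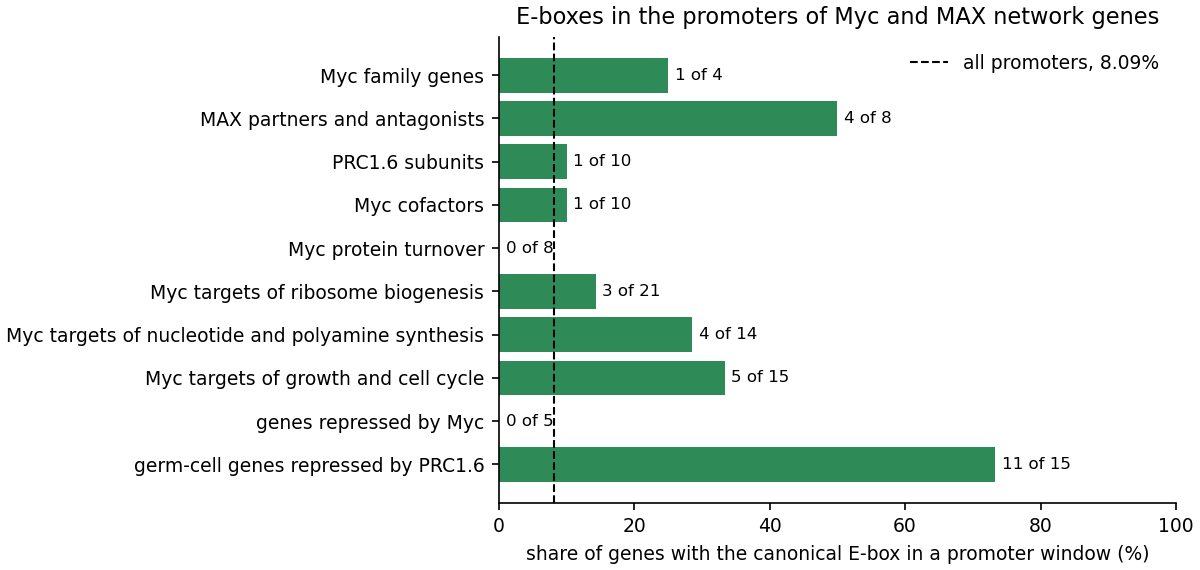
Share of genes in each list with a RefSeq promoter window that holds the canonical E-box (horizontal axis, %), with the number of genes beside each bar and a dashed line at the 8.09% of all genes. The germ-cell list has the highest share, 11 of 15, and the Myc family itself has 1 of 4.

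In embryos 0 genes of any of these lists were called in null against Nanog-bearing, in the full set and without null embryos F1 and M2, the pair with the most missing transcripts. Ribosome biogenesis had a median log2 fold change of -0.01 over 27 genes, with 13 fitted higher and 14 lower, and Polycomb subunits 0.11 over 13 genes, against -0.05 over all genes. Hormad1, a meiotic chromosome axis gene, had 2 counts over 4 null embryos, against 940 counts over 4 Nanog-bearing embryos (ratio 388, exact 95% interval 107 to 3209, counting error only). All 4 null embryos were below the 4 others, which held 17.5 and 0.813 CPM in heterozygous and 11.4 and 7.79 CPM in wild-type embryos, and 4.21% of all genes separated in that direction. Its edgeR adjusted p was 0.931. Mael, a piRNA pathway gene, had 0 counts in null embryos and 4.94 and 3.25 CPM in heterozygous and 0.0423 and 10.95 CPM in wild-type embryos (adjusted p = 0.931). Over the 12 germ-cell genes tested, 10 were fitted lower and 2 higher, with a median of -2.91. The median was -2.82 with genes at 0 counts set to their bound and -2.47 without null F1 and M2. Mael, Tex101 and Dazl were at 0 in all null embryos, entered the test only through the other embryos and could be fitted only lower. Hormad1 and Tdrkh, with at most 0.260 CPM in any null embryo, also passed the filter only through the other embryos. The direction of the Hormad1 ratio was therefore set by the filter as well. The split and the median are therefore in part set by the filter. The part of the missing transcripts in null embryos in these values was not tested. Cdkn1a, the p21 gene that c-MYC represses, had 58.8, 77.0, 38.3 and 30.3 CPM in the null embryos (F1, F2, M1, M2), 44.6 and 23.1 CPM in heterozygous embryos, and 12.8 and 12.1 CPM in wild-type embryos. The null and heterozygous embryos overlapped, and the log2 fold change in null against Nanog-bearing embryos was 1.36 ± 0.40 (edgeR adjusted p = 0.931).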

How the data were processed

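RNA sequencing counts per gene symbol were available for 8 embryo and 14 line libraries. The count table deposited by the authors holds raw whole-number counts with no normalization. The tools named in the submitters' processing notes are TopHat 1.3.1 and edgeR, with mm9 as the build. No source used here gives the counting program, the annotation or strand handling, so reads of overlapping genes on opposite strands may not be told apart. A second deposited table, of regulated genes, was not used.

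Groups came from the labels. The 8 embryos entered 1 quasi-likelihood fit (edgeR 4.0.16 under R 4.3.3, TMM, filterByExpr, robust) with 3 genotypes and sex as terms, 12965 genes. For lines, technical replicates were summed and 7 lines were fitted with no further term, 14687 genes. All 5 members passed both filters. Adjustment was by Benjamini-Hochberg within a comparison, threshold 0.05. SEs were taken as the size of the log2 fold change over the root of its F statistic. Nothing in the labels says that the embryos came from separate litters or the lines from separate cultures beyond line and passage, so p-values measure the spread between these samples. Counting intervals cover counting error only. Alternatives were DESeq2 1.42.0, limma 3.58.1 with a block, other scalings and filters, and leaving out samples. The procedure was tested on simulated data.

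The members and lists were chosen with earlier results of these data known. All 5 members are named. From each list, genes were named among the 4 called with the smallest p in a comparison, or the 2 with the smallest p where fewer than 2 were called. Outside that rule, values of Rybp, Mlxip, Nop56, Slc2a1, Slc7a5, Ddx4 and Stag3 in further comparisons, and per-sample values of single genes, were chosen after their values were seen. The promoter windows and coordinates are of GRCm38.p6, and no coordinate of mm9 is given.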

Additional observations from a re-analysis of the deposited data

How the results depend on the processing

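Of 621 alternative values, 563 were classed as the same. For single genes and for ratios in embryos, that meant that direction and side of the threshold were kept. For counts of members called and for ratios in lines, it meant only a similar size. Myc in ES against TS and in ES against XEN, and Mga in ES against TS, kept direction and side of the threshold in all 14 alternatives of each. Max in ES against TS was near 0 and turned to 0.0025 with DESeq2, 0.054 with upper-quartile scaling, 0.066 with library totals (an alternative chosen after seeing the data), and 0.0067 and 0.0073 with the first and the second technical replicate alone. The technical replicate numbers did not pair the lines: differences between passages correlated between -0.103 and 0.136 over 16 pairs of lines, 1 of them over 0.1. With a replicate block (limma voom), Mycl1 in ES against TS was -0.10 and Max 0.012, and no other call of a member changed. With the first technical replicate alone, ES against XEN Mycl1 was 1.49, and TS against XEN gave 0 of 5 members called, with Myc 0.29, Mycn -1.24 and Mycl1 1.43. With library totals TS against XEN gave 1 member called and Mycn -1.18. The difference in log2 ratio for Mycn to Myc in ES against TS was 3.72 and 2.94 with the first and second technical replicate. For Mycl1 to Myc it was 2.37 in ES against TS with the second, 3.88 and 6.26 in ES against XEN, and 1.17 and 3.89 in TS against XEN. Without null F1 and M2, null against heterozygous Mycn was -0.33. The cause was not tested in any of these.

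Leaving out 1 sample at a time gave ranges of -0.46 to 0.22 for Max and -0.067 to 0.78 for Mga in null against wild type. In null against heterozygous they were -1.82 to 1.09 for Myc, -0.72 to 0.64 for Mycn, -1.16 to 1.29 for Mycl1 and -0.053 to 0.44 for Mga. In heterozygous against wild type they were -2.80 to 0.11 for Myc and -0.25 to 0.59 for Mga. The ratio differences in null against Nanog-bearing ran from -1.84 to 2.06 for Mycn to Myc and from -1.12 to 1.59 for Mycl1 to Myc. Among lines, ES against TS gave 0.32 to 1.07 for Mycn, called only without XEN line 1 or XEN line 2, -0.22 to 0.23 for Mycl1 and -0.12 to 0.088 for Max. ES against XEN gave -1.27 to 0.22 for Mycn, called only without XEN line 2, and 1.24 to 2.10 for Mga. TS against XEN gave 1 to 3 members called, -0.70 to -0.28 for Myc, called only without TS line 3, -2.02 to -0.53 for Mycn and -1.09 to -0.23 for Mga, called only without XEN line 2. With 2 lines in a lineage, leaving 1 out assumes that the other varies like the remaining lines. At these depths Mycl1, with 2 to 8 counts in null and heterozygous embryos, was near the limit of detection.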
